A study of Mus musculus with 10 samples.

Results

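The cytosolic ribosomal protein genes were followed through osteoblast differentiation of MC3T3-E1 cells, a clonal pre-osteoblast line from mouse calvaria. The set was defined by gene name alone. It took every protein-coding gene of the GENCODE vM21 annotation whose symbol begins with Rpl or Rps and a digit, or is Rplp0, Rplp1, Rplp2 or Rpsa, without the S6 kinases and names with a hyphen. This gave 86 of the 40620 genes in the count table. Of these, 46 encode the core proteins of the large ribosomal subunit, 31 encode those of the small subunit, and 9 are paralogs or genes that carry the name without being core subunits. Whole-transcriptome RNA-seq was performed on total RNA at 5 stages with 2 replicates each, called A and B. Subconfluent and confluent cells were in growth medium (αMEM with serum). Cells at 24 h, 14 d and 21 d had received differentiation medium, which added β-glycerophosphate at 10 mM and ascorbic acid at 50 µg/ml. All samples came from the same unmodified line, and nothing states whether replicates came from separate cultures, so p-values measure only the spread between these samples.

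Ribosomes are built from ribosomal RNA and the proteins of a small and a large subunit, and nearly all core proteins are needed in matched amounts. Most mRNAs of these proteins begin with a cytosine followed by a run of pyrimidines, the terminal oligopyrimidine (TOP) tract, through which mTOR signalling and Larp1 control their translation. Assembly of the subunits takes place in the nucleolus and needs RNA polymerase I and a large group of assembly factors. Osteoblasts secrete collagen and other matrix proteins in large amounts and so have a high demand for protein synthesis.

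Total counts per sample lay between 44736156 and 162939333, with 1713793 to 9803926 counts on the 86 genes, so counting error was small beside the differences between replicates. Of the 7 osteoblast markers examined, 5 rose from subconfluent cells to 21 d, beside 27.3% of all genes. All 7 rose from confluent cells to 14 d, beside 16.9% of all genes, and 4 fell from 14 d to 21 d, beside 5.95%. The markers were Runx2, Sp7, Alpl, Col1a1, Col1a2, Bglap and Ibsp. Their summed level was 19570 to 21290 RPKM at 14 d and 11470 to 12130 at 21 d. Much of this sum was Col1a1, at 10422 and 8996 RPKM at 14 d and 5287 and 4900 at 21 d. Col1a1 was not among the rises to 21 d, with a log2 fold change over subconfluent cells of -0.007 (SE 0.21). Of the marker lists for other cell types, the summed level at 21 d was 0.207 to 0.422 RPKM for 4 adipocyte genes and 0.0321 to 0.0526 for 3 endothelial genes. For 4 blood genes it was 15.4 to 16.2, against 10.67 to 12.15 in subconfluent cells. Ptprc was listed at 0 in all samples and Cd68 was at 0.936 and 0.909 at 21 d, so most of the blood sum came from the rest of the list. Of 2 blood genes tested, 1 rose from subconfluent cells to 21 d, beside 27.3% of all genes. At 21 d the summed level was 73.1 to 78.5 RPKM for 3 chondrocyte genes, mostly Col2a1. It was 14.4 for 4 skeletal muscle genes, mostly Acta1, while Myod1 was at 0. In subconfluent cells the chondrocyte and muscle lists summed to 156 to 157 and 42.8 to 43.6. In confluent cells they summed to 74.8 to 81.1 and 37.1 to 41.8, and at 14 d to 202 to 211 and 15.3 to 18.7, so the chondrocyte sum was highest at 14 d. The part of such cells in the results was not tested. The subconfluent, confluent and 24 h libraries carried a different pair of index sequences from the 14 d and 21 d libraries, so index pair and stage cannot be told apart in comparisons across that border. At 24 h, replicate A stood apart from replicate B, as described with the 24 h values. Counts of ribosomal protein genes called are given with and without the 24 h samples.

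Of the 86 genes, 83 passed the filter on low counts. The 3 others are paralogs. Rpl10l, a retrogene known from testis, had 0 counts in every sample. Rpl39l had 2 counts in subconfluent replicate A, 1 in 21 d replicate B and 0 elsewhere, and Rpl3l, known as a muscle form of Rpl3, had between 0 and 7. With 20808 genes tested in all, log2 fold changes below are from counts with edgeR's quasi-likelihood test, their errors are standard errors (SE), and adjusted p-values are Benjamini-Hochberg values over all 20808 genes. A gene is called changed at an adjusted p under 0.05. RPKM, the read count scaled by gene length and library size, is the level as deposited.

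Promoter sequences of genes on which the results turn are printed here first. They come from RefSeq (GRCm38.p6) and run from 30 bases before the transcription start to 20 bases after it, 5′ to 3′ on the strand of the gene. The first pair is shown because Rps27 and its retrocopy Rps27rt, both among the 5 largest rises, begin with the same letters, and the capitals mark the 19 bases they share. Over a 345-base Rps27 transcript the copies were 98.8% identical, with 4 differences, so reads from the genes could be split between them and their separate values are uncertain.
Rps27, chr3:90213629-90213678, minus strand: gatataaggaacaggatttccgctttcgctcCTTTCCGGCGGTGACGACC
Rps27rt, chr9:114982720-114982769, minus strand: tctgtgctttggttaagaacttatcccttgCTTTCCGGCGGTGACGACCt
In the remaining sequences the capitals mark the longest unbroken run of C and T that touches the 10 bases on either side of the start; where runs of equal length touch them, as in Rps7 and Rpl7l1, only 1 is marked. Rps7, Rpl23, Rps6, Rpl38 and Rpl22l1 rose from subconfluent cells to 21 d, and Rps27l, Rpl7l1 and Rps19bp1 fell.
Rps7, chr12:28635934-28635983, minus strand: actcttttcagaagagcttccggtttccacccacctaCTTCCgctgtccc
Rpl23, chr11:97782420-97782469, minus strand: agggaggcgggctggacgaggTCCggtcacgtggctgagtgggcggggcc
Rps6, chr4:86857348-86857397, minus strand: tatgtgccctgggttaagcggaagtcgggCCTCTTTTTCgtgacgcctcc
Rpl38, chr11:114668550-114668599, plus strand: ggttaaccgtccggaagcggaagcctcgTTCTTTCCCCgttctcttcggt
Rpl22l1, chr3:28805478-28805527, plus strand: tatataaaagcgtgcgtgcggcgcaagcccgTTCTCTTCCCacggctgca
Rps27l, chr9:66946056-66946105, plus strand: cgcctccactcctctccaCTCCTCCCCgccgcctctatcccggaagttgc
Rpl7l1, chr17:46782637-46782686, minus strand: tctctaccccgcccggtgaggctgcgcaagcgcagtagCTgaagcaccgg
Rps19bp1, chr15:80264287-80264336, minus strand: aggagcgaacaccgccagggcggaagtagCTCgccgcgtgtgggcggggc
Rps6, Rpl38 and Rpl22l1 have runs of 10 pyrimidines at or next to the start. The marked run of 9 in Rps27l and that of 3 in Rpl23 lie wholly before the annotated start.

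Of the 86 genes, 66 were in the RefSeq promoter table, with 78 starts against 32851 starts of all genes. A pyrimidine run of at least 8 touching the 10 bases on either side of the start, transcribed or not, was found at 38.5% of the ribosomal protein starts and at 13.7% of all starts, and the median run was 6 bases against 4. The first transcribed base was C at 29.5% against 16.3%. The letters CTTTCC lay within 30 bases of the start, on the strand of the gene, at 17.9% against 2.89%. Searched on both strands over the 300 bases around the start, CCGGAA, the core letters of ETS factor sites, was present at 47.4% against 14.9%. GGGCGG, the GC box, was present at 60.3% against 35.7% and AGATGGC, found in YY1 sites, at 12.8% against 6.4%. TATAAA was present at 8.97% against 13.6%. CTTTCC can overlap CCGGAA read on the other strand, as it does in Rps27. These matches describe letters in the windows, not bound sites.

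Levels of the mRNAs were high throughout. The 77 core genes had a median of 444 RPKM in subconfluent cells and 769 at 21 d, means over replicates. Between 6 and 11 of the 86 genes were among the 100 most abundant genes of each sample. The highest levels averaged over all samples were those of Rplp1, a protein of the ribosomal stalk, at 4432 RPKM, of Rps12 at 2951 and of Rpl41, the smallest ribosomal protein, at 2846. Rps15a was the lowest core gene at 75.5 RPKM. Although the proteins are used in matched amounts, their mRNA levels had a standard deviation of 1.12 on the log2 scale in subconfluent cells and 1.15 at 21 d. The levels rest on the gene length listed in the files, which can differ from that of the mRNA, as for Rps27 with 251 against 345 bases. With the length of the principal transcripts instead, an alternative chosen after seeing the data, the standard deviation was 0.95 and 1.02, and Rpl41 became the highest and Rps15a stayed the lowest core gene.

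The share of all counts that fell on the 86 genes was 3.77% and 3.83% in the 2 subconfluent samples. It was 4.26% and 4.90% in confluent cells. At 24 h it was 7.20% in replicate A and 4.86% in replicate B. The late stages were close between replicates, with 5.81% and 5.76% at 14 d and 6.14% and 6.47% at 21 d. The means were 3.80% ± 0.041 (SD, n = 2), 4.58% ± 0.45, 6.03% ± 1.66, 5.78% ± 0.032 and 6.30% ± 0.24 in the order of the stages. All samples at 14 d and 21 d were above both subconfluent and both confluent samples, and the 24 h samples lay on either side of them. With 2 samples against 2, an exact two-sided permutation test cannot go below p = 0.333. As bulk shares, these values do not separate more mRNA per cell of these genes from less of other genes.

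**Figure D1:**
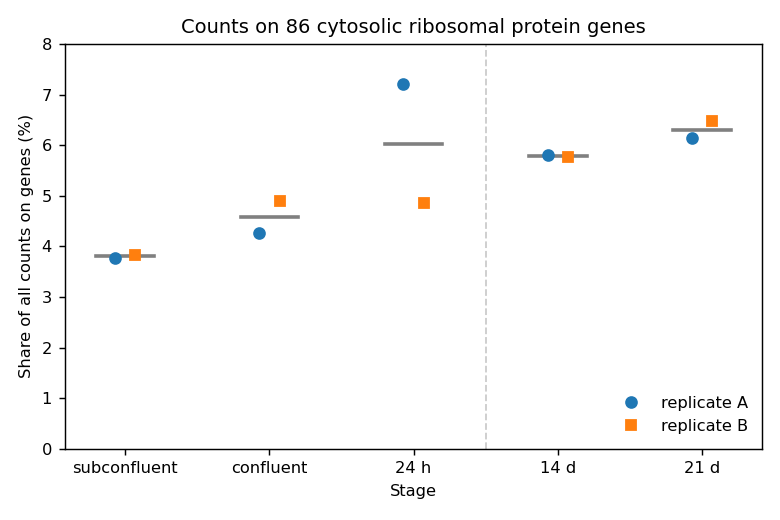
Share of all counts on genes that fell on the 86 ribosomal protein genes (y axis, percent) at each stage (x axis), with circles for replicate A, squares for replicate B, grey bars for the mean of 2, and a dashed line where the index pairs change. The subconfluent samples sit at 3.77% and 3.83%, the 21 d samples at 6.14% and 6.47%, and the 24 h samples are split at 7.20% and 4.86%.

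Between subconfluent cells and the 21 d culture, a comparison across the change of index pair, 56 of the 83 tested genes rose and 3 fell, while 27.3% of all genes tested rose and 23.5% fell. The median log2 fold change of the 83 genes was 0.85, with an interquartile range of 0.64 to 1.08, against a median of 0.04 over all genes with a range of -0.58 to 0.81. In 78 of the 83 genes both 21 d samples were above both subconfluent samples, which held for 43.2% of all genes. Of the 56 rises, 29 were over 2-fold, a size that 16.3% of all genes reached upwards. Rises made up most of both subunits. In the large subunit 30 of 46 core genes rose and none fell, with a median of 0.84. In the small subunit 24 of 31 rose and none fell, with a median of 0.87. The ratio of mean small subunit to mean large subunit RPKM was 1.13 ± 0.037 (SD, n = 2) in subconfluent cells and 1.22 ± 0.045 at 21 d. The difference between the subunits was not tested. The number of calls depended on the samples: without the 24 h samples, or without either of them, 78 rose and 4 fell of 83, while 31.8% to 34% of all genes rose. In contrast, 12 rose and 1 fell without subconfluent replicate A, beside 17.2% of all genes that rose, and 15 and 0 without subconfluent replicate B, beside 17%. The counts were 31 and 0 without 21 d replicate A, beside 19.4%, and 21 and 0 without 21 d replicate B, beside 18.1%. The median stayed between 0.80 and 0.88 in these fits.

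The largest rise was that of Rps14, a small subunit protein at the platform of the subunit whose loss is known from a human anaemia. Its RPKM was 226 and 236 in subconfluent cells, 299.5 and 486 in confluent cells, 646 and 421 at 24 h, 769.5 and 819.8 at 14 d, and 784 and 878 at 21 d. Both late stages lay above all earlier samples. The log2 fold change from subconfluent to 21 d was 1.96 (SE 0.29), with an adjusted p of 0.0011 by edgeR.

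Rps27 measured 1375 and 995 RPKM in subconfluent cells and 3321 and 4696 at 21 d. The rise was 1.88 (SE 0.50, edgeR adjusted p = 0.017). Replicates differed at several stages, most at 24 h with 3251 and 1349 RPKM, and with 1177 and 2399 in confluent cells. Its retrocopy Rps27rt went from 1262 and 1355 to 3661 and 4105 RPKM, a rise of 1.69 (SE 0.30, adjusted p = 0.0029). The ratio of Rps27rt to Rps27 RPKM was 1.14 ± 0.31 (SD, n = 2) in subconfluent cells and 0.99 ± 0.16 at 21 d, a difference within the spread of replicates. This pair was added after the values were seen.

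Rpl23, a large subunit protein that also binds Mdm2, was at 466 and 452 RPKM in subconfluent cells and at 1161 and 1294 at 21 d. The log2 fold change was 1.54 (SE 0.27, edgeR adjusted p = 0.0023). Rps7, another Mdm2-binding protein of the small subunit, rose from 439.6 and 448 to 1094 and 1161 RPKM, by 1.46 (SE 0.26, adjusted p = 0.0026). Rps14, Rps27rt, Rpl23 and Rps7 kept an adjusted p of 0.032 or lower under all 25 alternative settings and left-out samples tried, whereas that of Rps27 reached 0.12.

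**Figure D2:**
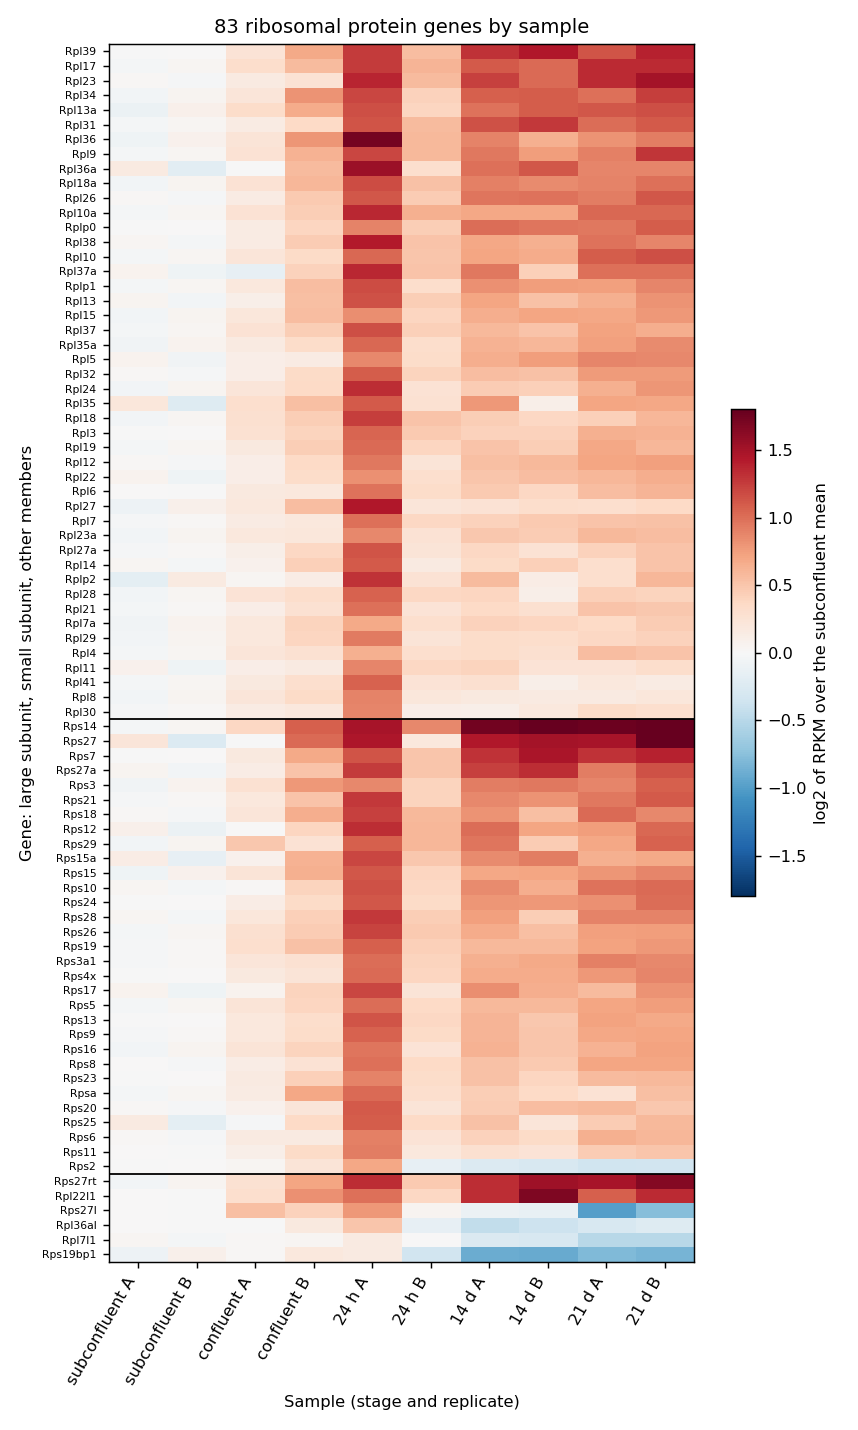
log2 of the RPKM of each of the 83 tested genes (rows, grouped into large subunit, small subunit and other members) over its mean in subconfluent cells, in each of the 10 samples (columns). The 24 h replicate A column is red in every core gene and stands out from replicate B, Rps14 is the darkest row at 14 d, and Rps2, Rps27l, Rpl36al, Rpl7l1 and Rps19bp1 are blue at 21 d.

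The members with special roles did not all move by the same amount. In the stalk, which recruits translation factors, the base protein Rplp0 rose from 1560.3 and 1570.4 RPKM in subconfluent cells to 3027 and 3324 at 21 d, a log2 fold change of 1.14 (SE 0.19, edgeR adjusted p = 0.002). Rplp1 rose by 0.93 (SE 0.28, adjusted p = 0.028). Rplp2, its dimer partner, had a value of 0.58 (SE 0.34, adjusted p = 0.2) and did not pass. Its subconfluent samples were at 175 and 222 RPKM and its 21 d samples at 246 and 301. Rpl5 and Rpl11 bind ribosomal RNA together as a small particle that also restrains Mdm2. Rpl5 rose from 181 and 167 to 321 and 317 RPKM, by 0.99 (SE 0.19, adjusted p = 0.004), while Rpl11, at 231 and 209 against 261 and 273, had 0.40 (SE 0.18, adjusted p = 0.11). The difference between these partners was not tested.

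Rpl38, known for its part in the translation of Hox mRNAs and in skeletal patterning, rose by 1.04 (SE 0.29, edgeR adjusted p = 0.021), from 419.7 and 401 RPKM to 808 and 751. Rpl24, also tied to skeletal patterning through the belly spot and tail mutant, had 0.83 (SE 0.32, adjusted p = 0.062). Rps6, the substrate of the S6 kinases, rose by 0.73 (SE 0.22, adjusted p = 0.025) from 672 and 653 to 1028 and 1001 RPKM. Rps19, mutated in Diamond-Blackfan anaemia, rose by 0.87 (SE 0.22, adjusted p = 0.013). Rps27a, made as a fusion with ubiquitin, rose by 1.15 (SE 0.27, adjusted p = 0.01). Among the most abundant mRNAs, Rps12 rose by 1.02 (SE 0.28, adjusted p = 0.02) and Rpl41 had 0.29 (SE 0.26, adjusted p = 0.4). Rps15a, the lowest core gene by RPKM, had 0.78 (SE 0.28, adjusted p = 0.052). Under the same 25 alternatives the calls of Rplp0 and Rpl5 held, with an adjusted p up to 0.027 and 0.049. Those of Rplp1, Rpl38, Rps6, Rps19, Rps27a and Rps12 were lost in some fits, where it reached 0.15, 0.12, 0.15, 0.089, 0.081 and 0.13.

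Rps2 was the only one of the 77 core genes with a negative value and was singled out after its values were seen. Its level was 1263 and 1272 RPKM in subconfluent cells, 1302 and 1490.2 in confluent cells, 2057 and 1147 at 24 h, 1064 and 1037 at 14 d, and 992 and 1003 at 21 d. Both 21 d samples lay below both subconfluent samples, but the log2 fold change of -0.23 (SE 0.26) had an edgeR adjusted p of 0.51. An exon of Rps2 overlaps Snhg9 on the opposite strand, and the strand setting of the counting is not given in the sources used here.

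The 3 genes that fell are all outside the core. Rps27l, a paralog of Rps27 known as a p53 target, was at 141 and 139 RPKM in subconfluent cells and 203 and 186 in confluent cells. It was at 240.2 and 145 at 24 h, 130.4 and 128 at 14 d, and 70.7 and 82.6 at 21 d, so that only 21 d lay clearly below the start. The log2 fold change was -0.75 (SE 0.24, edgeR adjusted p = 0.032). Rps19bp1, which is not a ribosomal protein but a binding partner of Rps19 and Sirt1, fell from 30.7 and 34.9 to 18.9 and 18.4 RPKM, with a value of -0.70 (SE 0.19, adjusted p = 0.018). Rpl7l1, a paralog of Rpl7 known from early large subunit assembly, fell from 53.8 and 51.6 to 37.4 in both replicates, with -0.38 (SE 0.10, adjusted p = 0.015). None of these calls held in every fit, as the adjusted p reached 0.16 for Rps27l, 0.093 for Rps19bp1 and 0.099 for Rpl7l1 when samples were left out or other settings were used.

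Paralogs and their parents were compared as a ratio of RPKM within each sample, in which the library size cancels. Rpl22l1, which can replace Rpl22 in the ribosome, exceeded its parent at every stage, with ratios of 4.73 ± 0.28 (SD, n = 2) in subconfluent cells, 6.02 ± 0.94 in confluent cells, 5.12 ± 0.24 at 24 h, 9.35 ± 1.33 at 14 d and 7.09 ± 0.74 at 21 d. Both genes rose to 21 d, Rpl22l1 from 356 and 351 to 748 and 898 RPKM by 1.34 (SE 0.28, edgeR adjusted p = 0.0058), and Rpl22 from 78.6 and 71.2 to 114 and 118 by 0.75 (SE 0.20, adjusted p = 0.015). Over the 25 alternatives the adjusted p reached 0.049 for Rpl22l1 and 0.12 for Rpl22. The ratio uses the lengths in the files, and as a ratio of counts it was 0.83 in subconfluent cells and 1.25 at 21 d, so the level of 1 gene over the other depends on length while the order of the stages does not.

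In the other 3 pairs the parent gained on the paralog. Rps27l over Rps27 was 0.121 ± 0.026 (SD, n = 2) in subconfluent cells, 0.125 ± 0.067 in confluent cells, 0.0907 ± 0.024 at 24 h, 0.0395 ± 0.0014 at 14 d and 0.0194 ± 0.0026 at 21 d. Rpl36al over Rpl36a was 1.24 ± 0.21, 1.07 ± 0.20, 0.742 ± 0.21, 0.442 ± 0.012 and 0.555 ± 0.014 over the same stages. Rpl7l1 over Rpl7 was 0.133 ± 0.0064, 0.121 ± 0.0021, 0.0895 ± 0.020, 0.0809 ± 0.0034 and 0.0660 ± 0.00029. For these 3 pairs every 14 d and 21 d ratio lay below every subconfluent and confluent ratio. How often other gene pairs do so was not worked out. In 75 of the 83 genes both 14 d samples were above both confluent samples, and in 78 both 21 d samples were above both subconfluent samples. A gene that did not rise could therefore give such a ratio over most of them. The ratio over Rps27 also carries the uncertainty from its retrocopy. Rpl7 rose by 0.64 (SE 0.21, edgeR adjusted p = 0.036, up to 0.17 in the alternatives), whereas Rpl36a, with 0.995 (SE 0.40, adjusted p = 0.076), and Rpl36al, with -0.14 (SE 0.22, adjusted p = 0.63), did not pass on their own. The parents Rpl3, Rpl10 and Rpl39 had paralogs at or near 0 counts, and no ratio is given.

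**Figure D3:**
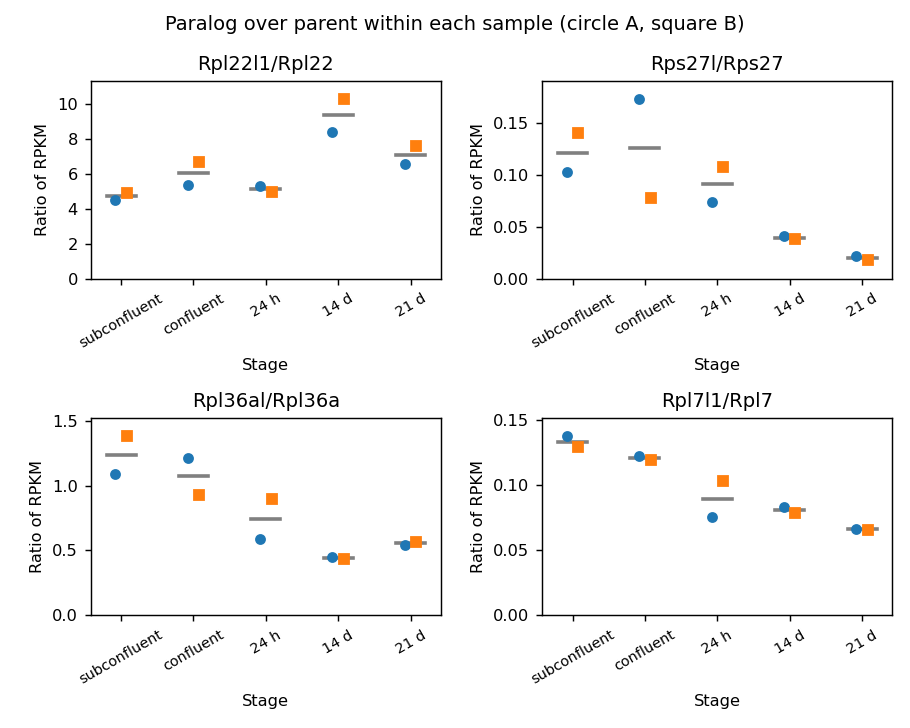
RPKM of a paralog over that of its parent gene within each sample (y axis, ratio, starting at 0) by stage (x axis), with circles for replicate A, squares for replicate B and grey bars for the mean of 2. Rpl22l1 over Rpl22 is highest at 14 d with a mean of 9.35, while Rps27l over Rps27 falls to a mean of 0.0194 at 21 d.

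Confluent cells and cells after 14 d of differentiation medium were compared to follow the response to differentiation from its start. This comparison also crosses the change of index pair, so index pair and stage cannot be told apart in it. Here 14 of the 83 genes rose and 1 fell, a share of rises near the 16.9% of all genes that rose, while 15.3% of all genes fell. The median log2 fold change was 0.50, with an interquartile range of 0.35 to 0.73, against 0.03 over all genes. In 75 of 83 genes both 14 d samples were above both confluent samples, which held for 39.5% of all genes. Of the rises 8 were over 2-fold, which held for 9.15% of all genes. Of the marker lists for other cell types, both tested chondrocyte genes were also higher at 14 d, and the 1 tested skeletal muscle gene was lower. The 14 rises comprised 8 of 46 large subunit genes, 4 of 31 small subunit genes and 2 others. The count moved widely with the samples. It was 68 rises and 3 falls without 24 h replicate A, 63 and 4 without 24 h replicate B, and 65 and 4 without both, where 25.5%, 24.4% and 26.6% of all genes rose. It was 1 and 1 without confluent replicate A, 7 and 0 without confluent replicate B, 3 and 0 without 14 d replicate A, and 1 and 0 without 14 d replicate B, where 9.27%, 10.2%, 9.42% and 9.24% of all genes rose. Without either subconfluent sample it was 8 and 1, where 12.6% and 12.5% of all genes rose. The median kept its sign and was between 0.42 and 0.62 in these fits, and it was 0.27 with library size alone, a scaling that also moved the median of all genes to -0.20.

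Rps14 again had the largest rise at 14 d, with a log2 fold change over confluent cells of 1.23 (SE 0.28, edgeR adjusted p = 0.015). Rpl31, a protein near the exit of the peptide tunnel, rose from 211 and 244 RPKM in confluent cells to 420.1 and 458 at 14 d, by 1.17 (SE 0.21, adjusted p = 0.005). An exon of Rpl31 overlaps Tbc1d8 on the opposite strand. Rps7 rose by 1.16 (SE 0.26, adjusted p = 0.013) and Rps27a by 1.15 (SE 0.27, adjusted p = 0.017), the latter from 402 and 525 to 857 and 919 RPKM. Rpl22l1 rose from 437 and 628 to 889 and 1132 RPKM, by 1.14 (SE 0.28, adjusted p = 0.019). The fall was that of Rps19bp1, from 33.3 and 37.5 to 17.7 and 17.4 RPKM, with -0.80 (SE 0.19, adjusted p = 0.017). These 5 rises and this fall had groups that did not overlap, which their choice as the largest called changes made likely. Over all genes, 39.5% had both 14 d samples above both confluent samples. Only the call of Rpl31 held under all 25 alternative settings and left-out samples, with an adjusted p up to 0.046. It reached 0.083 for Rps14, whose log2 fold change ranged from 0.92 to 1.62, and 0.086 for Rps7, 0.11 for Rps27a, 0.12 for Rpl22l1 and 0.091 for Rps19bp1.

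Successive stages within an index pair gave no calls by edgeR. From subconfluent to confluent cells all 83 genes had a positive value, with a median of 0.27, and in 71 both confluent samples were above both subconfluent samples, which held for 28.8% of all genes. None passed, against 1.95% of all genes called higher and 1.34% lower, and 1 gene had an unadjusted p under 0.05, against 17.1% of all genes. DESeq2 and limma also called 0, and edgeR called 16 genes higher without the 24 h samples, 15 without 24 h replicate A alone and 13 without replicate B alone, where 8.16%, 7.08% and 7.27% of all genes were higher. From 14 d to 21 d the median was 0.06, 53 values were positive and 30 negative, and none passed, against 3.77% of all genes higher and 5.95% lower. There, 2 genes had an unadjusted p under 0.05, against 23.8% of all genes. DESeq2 called 2 lower and limma 0. Without 21 d replicate B the median was -0.0010. The level reached at 14 d and the level at 21 d were thus not told apart by this test, which does not show that they were equal.

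The 24 h samples differed from each other more than replicates of any other stage did. All 83 genes were higher in replicate A than in replicate B, with a median log2 difference of 0.81, while the medians at the other stages were -0.03, -0.23, -0.004 and -0.07. In the confluent pair the difference was the other way, with 2 of 83 genes higher in replicate A. Other short genes moved with the 24 h difference. Among genes outside the set, divided by length into 4 groups of about equal size, the median difference between the 24 h replicates was 0.21 in the shortest group and -0.33 in the longest. The mitochondrial ribosomal proteins, a list of 77 genes, had 0.59 and the ribosome assembly factors 0.19. The part of transcript length in the result was not tested beyond a fit with the length trend removed, given with the settings.

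From confluent cells to 24 h the 83 genes had a median of 0.58 and 41 had both 24 h samples above both confluent samples, which held for 23% of all genes. None passed by edgeR, against 3.59% of all genes higher and 1.57% lower, although 40 had an unadjusted p under 0.05, which 23.3% of all genes had. DESeq2 called 15 higher and limma 0. Which replicate was kept decided the result, with 79 genes higher and a median of 0.94 without replicate B, where 19.9% of all genes were higher, and 0 genes and a median of 0.11 without replicate A, where 6.15% were. From 24 h to 14 d, across the change of index pair, Rps19bp1 fell and no gene rose by edgeR, against 8.21% and 9.08% of all genes. At an unadjusted p under 0.05, 3 were higher and 2 lower, against 32.2% of all genes in either direction. DESeq2 called 1 higher and 1 lower, and limma 0 higher and 2 lower. The median of -0.08 became 0.37 without 24 h replicate A, with 39 rises and 1 fall beside 11.7% and 11.1% of all genes, and -0.46 without replicate B, with 0 rises and 48 falls beside 23.1% and 23.4%. No direction can be given for this step. A single test of any difference among the 5 stages called 41 of 83 genes, a share near the 48.9% of all genes.

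Ribosomal protein genes have many processed pseudogenes that can take their reads. Only those whose symbol begins with Rpl or Rps and a number and goes on to -ps were taken, so pseudogenes named otherwise are left out. The table held 237 pseudogenes with such symbols, of which 204 were tested. Their counts summed to between 122% and 135% of the counts on the 86 genes in each sample. From subconfluent to 21 d, 146 of the 204 were called higher and none lower, while 27.3% of all genes rose. Their median was 0.89 beside 0.85 for the genes themselves. From confluent cells to 14 d, 50 of the 204 were higher and none lower, while 16.9% of all genes rose. How reads that match several places were counted is not given in the sources used here, so pseudogene and parent values are not separate measurements. In addition, 29 of the 86 genes share exon bases with another gene, 15 on the same strand and 15 on the opposite strand. Genes outside the set had a median log2 fold change to 21 d of 0.02 in the shortest of the 4 length groups and 0.05 in the next. With the trend over gene length removed from each sample, 60 of 83 genes rose and 3 fell. The share of all genes called in that fit was not worked out, so this count does not show what length contributes.

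The other lists of the translation machinery were compared over the same interval, from subconfluent cells to 21 d. Ribosomal proteins whose names fall outside the rule were represented by Rack1 and Fau, which both rose. Rack1, a scaffold on the small subunit, rose by 1.47 (SE 0.29, edgeR adjusted p = 0.0045) from 453 and 472 to 1073 and 1288 RPKM. Fau, which encodes Rps30 fused to a ubiquitin-like protein, rose by 1.03 (SE 0.34, adjusted p = 0.036). Of 20 translation factors and related genes with TOP mRNAs, 9 rose and 3 fell, with a median of 0.33, beside 27.3% of all genes that rose and 23.5% that fell. The largest rises were those of Tpt1 (1.35), Eif3h (1.23) and the elongation factors Eef2 (1.22) and Eef1a1 (1.05). Hnrnpa1, an RNA-binding protein, fell with -1.16, Eif3l with -0.51 and the histone chaperone Nap1l1 with -0.41.

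The ribosome assembly factors went the other way. Of 42 tested, 36 fell and 1 rose, with a median of -0.98, while 23.5% of all genes fell. Tcof1, needed for ribosomal DNA transcription and mutated in Treacher Collins syndrome, went from 28.9 and 29.1 RPKM to 9.95 and 8.65, a value of -1.53 (SE 0.15, edgeR adjusted p = 0.00014). Mrto4, which holds the place of the stalk protein during assembly, had -1.50, Rrp12 had -1.46 and the nucleolar chaperone Nolc1 -1.36. Sbds, which acts at the last step of large subunit maturation, was the 1 that rose, by 0.36 (SE 0.11, adjusted p = 0.034). The fall was also found from confluent cells to 14 d, with 33 of 42 lower and none higher, against 15.3% of all genes lower. Between 24 h and 14 d, 24 were lower against 8.21% of all genes, 26 against 11.1% without 24 h replicate A, and 35 against 23.4% without replicate B. Within the late index pair 5 of 42 were lower from 14 d to 21 d, against 5.95% of all genes, with a median of -0.24. Without the 24 h samples 21 of 42 were lower and 2 higher over this step, against 15.6% and 11% of all genes.

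RNA polymerase I subunits and factors, 15 genes, had 8 falls and 2 rises with a median of -0.30, beside 23.5% of all genes that fell. Cd3eap fell with -1.05, the initiation factor Rrn3 with -1.03, Polr1b with -0.78 and Polr1e with -0.72, while Ttf1 rose by 0.58 and Polr1c, shared with RNA polymerase III, by 0.41. The host genes of small nucleolar RNAs, many of which are themselves TOP transcripts, had 4 rises and no falls among 5 tested. Of all genes 27.3% rose. Snhg12 was at 2.60, Gas5 at 1.81, Snhg6 at 0.89 and Snhg5 at 0.76. Without the 24 h samples 4 of these 5 hosts rose and 1 fell, beside 34% and 32.1% of all genes. Among 15 regulators of ribosomal protein genes and of TOP translation, Myc rose by 0.41. Gabpb1, a partner of an ETS factor, fell with -1.37, Larp1 with -0.90 and the S6 kinase Rps6kb2 with -0.66. The other 11 did not pass, and 23.5% of all genes fell. Without the 24 h samples 9 of the 15 regulators fell and 1 rose, beside 32.1% of all genes that fell.

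The mitochondrial ribosomal proteins, which translate the mitochondrial genome, served as a second ribosome in the same samples. Of 77 tested, 28 fell and 3 rose, with a median of -0.39, beside 23.5% of all genes that fell and 27.3% that rose. Without the 24 h samples 46 fell and 5 rose, beside 32.1% and 34% of all genes. Mrpl18 fell from 57 and 56.8 to 15.8 and 18 RPKM, with -1.64 (SE 0.19, edgeR adjusted p = 0.00034), followed by Mrpl46 (-1.06), Mrpl51 (-1.06) and Mrpl16 (-1.04). Mrpl24 rose by 1.34, Mrps6 by 0.90 and Mrpl45 by 0.53. Thus cytosolic ribosomal protein genes were mostly higher at 21 d than in subconfluent cells while most called genes of the assembly factors and of the mitochondrial ribosome were lower. The difference between the lists was not tested.

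**Figure D4:**
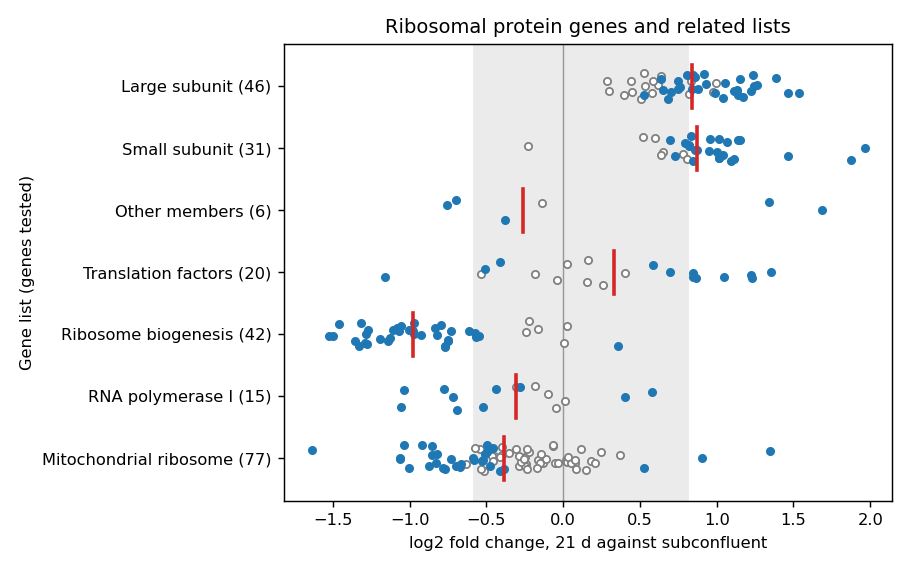
log2 fold change from subconfluent cells to 21 d (x axis) for each tested gene of the ribosomal protein groups and of 4 related lists (rows, with the number of genes tested), filled where the edgeR adjusted p was under 0.05, with a red bar at the median of the list and a grey band for the middle range of all genes (-0.58 to 0.81). Large and small subunit genes lie right of 0 apart from Rps2, and the assembly factors centre on -0.98.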

How the data were processed

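RNA-seq was performed by the authors on 10 MC3T3-E1 samples, 5 stages with replicates A and B, as 51 bp paired-end reads. The submitters' processing notes name FastQC, TopHat2 2.0.9, R 3.0.1 and the mm10 build. The counting tool, annotation and strand setting are not given in the sources used here. The deposited gene table holds raw counts, and a second table deposited by the authors holds RPKM. Total counts were 1.44 to 1.60 times the total that the RPKM values imply. Merged columns were used where 2 lanes were listed.

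Groups came from the sample titles. Counts were tested in edgeR 4.0.16 (R 4.3.3) with default filtering by expression, TMM scaling and a quasi-likelihood fit of all 10 samples in 5 groups without a block, for 6 comparisons and an F test over stages. Standard errors were taken from the F statistic. RPKM levels and ratios were described per sample. DESeq2 1.42.0, limma 3.58.1 on log2(RPKM + 1) and log2(RPKM + 0.1), other scalings, filters, a length trend (lowess span 0.3) and left-out samples were the alternatives. The fit was tested on simulated data for 21 d against subconfluent cells, with 200 genes changed. It called 1 of 67 genes changed 1.5-fold, 17 of 69 changed 2-fold and 53 of 64 changed 4-fold. Of 73 calls, 2 were false. A gene without a call may thus still have changed by 2-fold or less. Genes without an RPKM value in every sample (1 gene) were left out of RPKM sums.

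The set, the gene lists and the tests were chosen with earlier results of these data known. Named are the 3 highest and lowest genes, the 5 largest called rises and falls from subconfluent to 21 d and from confluent to 14 d, paralog pairs, genes with known special roles, genes that failed the filter, and up to 4 genes per direction of each other list. The lists were ribosomal proteins outside the naming rule (Fau and Rack1; another gene of that list is not reported here), TOP translation factors, ribosome assembly factors, RNA polymerase I, small nucleolar RNA hosts, regulators, mitochondrial ribosomal proteins, pseudogenes and cell type markers. Exon overlaps came from GENCODE vM21 on the same build, and promoters from RefSeq GRCm38.p6. Where a sample is left out of a group of 2, the remaining sample is assumed to vary like the other groups.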

Additional observations from a re-analysis of the deposited data

How the results depend on the processing

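From subconfluent to 21 d and from confluent to 14 d, the counts of calls varied widely while the median kept its sign. Over all 25 alternatives these medians were 0.69 to 0.97 and 0.27 to 0.62. At the steps to and from 24 h the medians moved widely too. Leaving out each sample in turn gave 13 to 82 called genes from subconfluent to 21 d (59 with all), 1 to 71 from confluent to 14 d (15), 0 to 79 from confluent to 24 h, 0 to 15 from subconfluent to confluent, 0 to 48 from 24 h to 14 d, 0 to 5 from 14 d to 21 d, and 9 to 83 in the test over 5 stages (41). The medians ranged over 0.80 to 0.88, 0.42 to 0.62, 0.11 to 0.94, 0.15 to 0.37, -0.46 to 0.37 and -0.0010 to 0.096 in the same order of comparisons. The reversals were from 24 h to 14 d without 24 h replicate A (0.37) and from 14 d to 21 d without 21 d replicate B (-0.0010). The cause was not tested.

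The share of all genes called was worked out only for the main fit, its 2-fold rises and the comparisons with samples left out. Counts for all other settings, and for the test over stages in any alternative, have no such share. They do not separate these genes from the effect of a looser or stricter test. From subconfluent to 21 d, a 2-fold minimum left 29 calls. From confluent to 14 d, calls numbered 8 with the 2-fold minimum, 27 with DESeq2, 56 with only the 2 groups compared, 69 without the 24 h samples and 25 with the length trend removed. The test over stages called 70 with DESeq2, 62 with at least 10 counts in every sample, 80 without the 24 h samples, 24 and 25 with limma at pseudocounts of 1 and 0.1, and 21 with the replicate block. DESeq2 called 15 from confluent to 24 h. From subconfluent to confluent, 1 was called with only the 2 groups compared and 16 without the 24 h samples. From 24 h to 14 d, where 1 was called, the count was 4 with library size alone or the length trend removed, 2 with DESeq2, with 10 counts in every sample and with limma, and 0 with the 2-fold minimum, only the 2 groups compared, the replicate block and log2 library size as a covariate, an alternative chosen after seeing the data. From 14 d to 21 d, 2 were called with DESeq2 and with the length trend removed, 14 with only the 2 groups compared and 5 without the 24 h samples.

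The correlation of A minus B between stages was -0.184 to 0.0995 over 10 stage pairs. It gave each of the 20808 genes equal weight, including those with low counts, where counting error can hide a shared effect. It therefore does not settle whether the replicate letters pair the samples. With the letter as a block, 57 genes were called from subconfluent to 21 d and 12 from confluent to 14 d. Rpl41 from confluent to 14 d turned to -0.057 with library size alone and to -0.045 with limma at either pseudocount; it passed in none of these.

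Stage means of the share of counts were 5.21%, 6.44%, 8.97%, 8.43% and 9.41% over protein-coding genes alone. Of summed RPKM they were 4.66%, 5.30%, 6.22%, 6.35% and 6.61%, so that 24 h was below 14 d, while by counts its mean was above. With 1 sample left in a stage, the shares of all counts were 3.77% to 3.83%, 4.26% to 4.90%, 4.86% to 7.20%, 5.76% to 5.81% and 6.14% to 6.47%. As ratios of counts in the order of the stages, Rpl22l1 over Rpl22 was 0.831, 1.06, 0.900, 1.64 and 1.25. Rps27l over Rps27 was 0.391, 0.404, 0.293, 0.127 and 0.0627. Rpl36al over Rpl36a was 0.868, 0.751, 0.522, 0.310 and 0.390, and Rpl7l1 over Rpl7 was 0.163, 0.147, 0.109, 0.0987 and 0.0806. Counts and RPKM differ here by the lengths alone.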
